A study of Homo sapiens with 12 samples.

Results

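The elements described here are the 12 single substitutions at position 1 of the Pumilio response element, the 8-base element TGTANATA in which N at position 5 may be any base. They were chosen by sequence alone, as every 8-base element that has A, C or G in place of T at position 1 and keeps the consensus base at positions 2 to 4 and 6 to 8. They are 12 of the 1006 elements listed in all 12 libraries, and another 4 are the unchanged consensus elements. Each element is a synthetic sequence within a recorder mRNA, so it has no position in the genome.

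The study measured binding of the human Pumilio protein PUM2 in HEK293T cells, a transformed line from human embryonic kidney, by the RNA editing that the bound protein leaves behind. PUM2 was fused to ADARcdMUT, a deaminase domain that turns adenosine into inosine, which is read as G after sequencing, and the edits were counted in a recorder hairpin next to the element. Each of the 4 groups had 3 biological replicates. The fusion was studied not induced, at 25 ng and at 250 ng, and the deaminase domain alone, ADARcdMUT, was studied at 1000 ng. All were HEK293T of wild-type genotype, and the fusion was switched on with doxycycline. The labels give the amounts with no substance or volume, and do not say whether the amount of ADARcdMUT refers to the same substance, so the fusion and ADARcdMUT groups were not set at matched doses.

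Pumilio proteins bind single-stranded RNA through a row of helical repeats, each of which contacts 1 base. The protein runs opposite to the RNA, so position 1 of the element is contacted by the last repeat of the row, and U stands there in the consensus. Bound in the 3′ untranslated region of an mRNA, PUM2 recruits factors that shorten the poly(A) tail and lower the mRNA's translation and stability.

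The 12 elements and the consensus elements from which each differs by 1 base are shown because every comparison below sets one against another. They are written 5′ to 3′ as DNA, with positions 1 and 5 in capitals, and the first base at the 5′ end is position 1. The first 4 carry T1A, the next 4 T1C, the next 4 T1G, and the last 4 are the consensus elements with the 4 bases at position 5.
AGTAAATA: AgtaAata
AGTACATA: AgtaCata
AGTAGATA: AgtaGata
AGTATATA: AgtaTata
CGTAAATA: CgtaAata
CGTACATA: CgtaCata
CGTAGATA: CgtaGata
CGTATATA: CgtaTata
GGTAAATA: GgtaAata
GGTACATA: GgtaCata
GGTAGATA: GgtaGata
GGTATATA: GgtaTata
TGTAAATA: TgtaAata
TGTACATA: TgtaCata
TGTAGATA: TgtaGata
TGTATATA: TgtaTata

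The libraries held 11235321 to 25127959 reads, and the 12 elements had 5005 to 31956 reads in a library. The value reported is the percent edited, the edits over all 7 recorder adenosines of all reads of an element. Its 95% Wilson half-width for the 12 elements ran from 0.0717 to 0.204 percentage points. It takes the 7 adenosines of a read as independent and leaves out the spread between replicates. Over the 12 elements at 250 ng, the median share of edited reads was 22.6%, with a median of 2.57 edits on each. Edits thus fell together on reads, and the half-width understates even the counting error. The median over all elements was 1.82% ± 0.0991 without induction, 4.34% ± 0.194 at 25 ng, 7.87% ± 0.0991 at 250 ng and 1.95% ± 0.120 with ADARcdMUT (SD over libraries, n = 3 each).

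With a base other than T at position 1, editing after induction lay well below that of the consensus elements and near that of the library as a whole. The median of the 12 elements was 1.74% ± 0.0896 without induction, 4.51% ± 0.242 at 25 ng, 8.31% ± 0.221 at 250 ng and 1.91% ± 0.112 with ADARcdMUT (SD over libraries, n = 3 each). The 4 consensus elements had medians of 1.79% ± 0.0794, 7.24% ± 0.603, 13.3% ± 0.288 and 1.80% ± 0.0878 in the same groups. Editing of the 12 elements was higher in each induced group than without induction or with ADARcdMUT, and higher at 250 than at 25 ng. Every one was lower than its consensus element at both amounts.

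Of the elements with A at position 1, AGTATATA was edited at 1.68%, 1.61% and 1.66% without induction, 4.96%, 5.12% and 5.02% at 25 ng, 8.97%, 9.19% and 9.84% at 250 ng, and 2.47%, 2.09% and 1.75% with ADARcdMUT. AGTACATA was edited at 1.61%, 1.82% and 1.60% without induction, 4.76%, 4.71% and 4.61% at 25 ng, 8.88%, 8.99% and 9.09% at 250 ng, and 1.73%, 1.99% and 1.88% with ADARcdMUT. The libraries of the 3 fusion groups did not overlap for either element, nor for any of the other elements with a change at position 1 alone. The library medians of these groups did not overlap either, at 1.73% to 1.93%, 4.20% to 4.57% and 7.78% to 7.97%. With ADARcdMUT the libraries of AGTATATA lay above its non-induced ones, and those of AGTACATA overlapped its own. The share of all elements that overlapped in these comparisons was not counted. AGTAAATA was edited at 1.73%, 1.71% and 1.78% without induction, 4.58%, 5.72% and 4.13% at 25 ng, 8.58%, 8.55% and 8.82% at 250 ng, and 2.09%, 1.69% and 1.60% with ADARcdMUT. AGTAGATA was edited at 1.69%, 2.12% and 1.58% without induction, 4.32%, 4.41% and 4.03% at 25 ng, 7.92%, 7.75% and 7.70% at 250 ng, and 1.91%, 2.002% and 1.93% with ADARcdMUT. AGTAGATA, with G at position 5, was the least edited of the 4 in every library at 250 ng, and AGTAAATA spread most between its 25 ng libraries.

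Of the elements with C at position 1, CGTATATA was edited at 1.65%, 1.81% and 1.57% without induction, 4.58%, 4.35% and 4.70% at 25 ng, 8.38%, 8.66% and 9.39% at 250 ng, and 2.18%, 1.75% and 1.61% with ADARcdMUT. CGTACATA was edited at 1.62%, 1.94% and 1.77% without induction, 4.54%, 4.89% and 4.24% at 25 ng, 8.24%, 8.66% and 8.46% at 250 ng, and 1.78%, 1.91% and 1.79% with ADARcdMUT. These were the higher pair of the 4 on average at 250 ng. CGTAAATA was edited at 1.42%, 1.86% and 1.43% without induction, 4.27%, 4.22% and 4.27% at 25 ng, 7.79%, 7.89% and 8.04% at 250 ng, and 1.90%, 2.05% and 1.85% with ADARcdMUT. CGTAGATA was edited at 1.78%, 1.77% and 1.66% without induction, 4.10%, 4.61% and 3.94% at 25 ng, 7.10%, 7.35% and 7.61% at 250 ng, and 1.97%, 1.89% and 1.72% with ADARcdMUT. CGTAGATA had the lowest mean of all 12 elements at 250 ng.

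Of the elements with G at position 1, GGTATATA was edited at 1.76%, 1.94% and 1.94% without induction, 4.62%, 5.29% and 4.67% at 25 ng, 8.18%, 8.84% and 8.50% at 250 ng, and 1.78%, 2.07% and 1.97% with ADARcdMUT. GGTACATA was edited at 1.74%, 1.81% and 1.83% without induction, 4.40%, 4.97% and 4.22% at 25 ng, 7.78%, 8.40% and 8.16% at 250 ng, and 1.93%, 2.09% and 1.92% with ADARcdMUT. The 2 elements overlapped in each of the 4 groups. GGTAAATA was edited at 1.70%, 1.999% and 1.69% without induction, 4.55%, 4.76% and 4.37% at 25 ng, 7.94%, 8.22% and 8.32% at 250 ng, and 2.20%, 2.07% and 1.77% with ADARcdMUT. GGTAGATA was edited at 1.88%, 1.94% and 1.77% without induction, 4.28%, 4.46% and 4.21% at 25 ng, 7.70%, 7.85% and 7.60% at 250 ng, and 2.17%, 1.81% and 1.78% with ADARcdMUT. The G elements spanned a narrower range of means at 250 ng, 7.72% to 8.50%, than the A elements, 7.79% to 9.33%, or the C elements, 7.35% to 8.81%.

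The percent edited was compared on the log2 scale of the odds of an edit, with limma over all 1006 elements and a Benjamini-Hochberg adjusted p under 0.05 as the call. All 12 elements were higher at 250 ng than without induction, as were 100% of the 1006 elements. Their log2 odds changed by 2.14 to 2.62. All 12 were also higher at 25 ng than without induction, at 250 ng than at 25 ng, and at each amount than with ADARcdMUT, again beside 100% of all elements. ADARcdMUT against the non-induced fusion gave a call for 0 of the 12, beside 0.199% of all elements higher and 0 lower, with log2 odds differences of 0.03 to 0.34. Relative to the library median that comparison gave 0 calls as well, again beside 0.199% of all elements higher and 0 lower. An unadjusted limma p under 0.05 was found for 2 of the 12 and for 134 of the 1006.

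Since the whole library moved with induction, each library was also centred on its own median, so that a change is relative to that median. At 250 ng against no induction, 3 of the 12 elements rose relative to the median and 0 fell, beside 9.64% of all elements higher and 3.38% lower. The count was 5 without ADARcdMUT replicate 1. AGTATATA rose by 0.41 (SE 0.08, adjusted p = 0.00174), AGTACATA by 0.33 (SE 0.07, adjusted p = 0.00482) and CGTATATA by 0.30 (SE 0.08, adjusted p = 0.0211) in limma's fit. The call on CGTATATA rested on its libraries: the adjusted p was 0.0817 without non-induced replicate 3, 0.0545 without 250 ng replicate 2 and 0.125 without 250 ng replicate 3. The other 9 changes ran from -0.07 for GGTAGATA to 0.24 for CGTAAATA, whose adjusted p was 0.0555. EMPTY, the entry listed without an element sequence, fell by 0.19 (adjusted p = 0.0140).

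At 25 ng against no induction the rise relative to the median passed for AGTATATA, by 0.37 (adjusted p = 0.00556), and for AGTACATA, by 0.24 (adjusted p = 0.0465), beside 7.06% of all elements higher and 2.19% lower. The count was 1 without non-induced replicate 1 or 3, any 1 of the 25 ng replicates, or any 1 of the 250 ng replicates. At 250 ng against ADARcdMUT 4 elements passed, all higher, beside 10.3% of all elements higher and 4.37% lower. These were AGTAAATA with 0.28, AGTACATA with 0.27, CGTATATA with 0.26 and CGTACATA with 0.20, at adjusted p of 0.0198 to 0.0429. The count fell to 0 without any 1 of the 250 ng replicates, to 1 without 25 ng replicate 1, and to 2 without ADARcdMUT replicate 2 or 3. At 25 ng against ADARcdMUT limma called 0 of the 12, beside 7.55% of all elements higher and 2.49% lower. Limma's unadjusted p was under 0.05 for 4 of the 12 and for 249 of the 1006. The count of calls was 1 without 25 ng replicate 3 and 2 without ADARcdMUT replicate 1. At 250 ng against 25 ng limma called 0 of the 12 and 0 of the 1006 relative to the median, and 0 of the 12 had an unadjusted p under 0.05.

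Ranks among all 1006 elements, with 1 as the most edited, placed the 12 across nearly the whole library. At 250 ng the 12 elements ranked 48 to 985 in single libraries, with 8 above the library median in 3 of 3 libraries and CGTAGATA and GGTAGATA below it in 3 of 3. At 25 ng they ranked 36 to 888. Without induction 12 of the 36 values lay above the library median, and with ADARcdMUT 17 of 36 did. By definition the median splits the elements of each library evenly. The share of all elements on the same side of it in 3 of 3 libraries was not counted.

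Each element was then set against the consensus element with the same base at position 5, within each library. The 4 consensus elements were edited at 250 ng at 13.9%, 13.5% and 14.2% for TGTATATA, 13.5%, 13.0% and 13.8% for TGTACATA, 12.9%, 13.3% and 13.6% for TGTAAATA, and 11.7%, 11.3% and 11.4% for TGTAGATA. At 25 ng they were edited at 7.53%, 7.71% and 6.61%, at 7.25%, 8.39% and 7.01%, at 7.22%, 7.997% and 6.69%, and at 6.09%, 6.30% and 5.92% in the same order. Every library of each of the 12 elements lay below every library of its consensus element at both amounts. The share of other pairs of elements with such full separation was not counted.

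At 250 ng 12 of 12 elements were lower than their consensus element by limma over all 4845 pairs of elements that differ at 1 position. The same call was made for 45.4% of the 1780 pairs in which 1 element has more mismatches to the consensus than the other. The differences in log2 odds ran from -0.83 for CGTAAATA (SE 0.09) to -0.62 for AGTAGATA (SE 0.07), with a median of -0.73. The odds of an edit were thus 0.562 to 0.651 of those of the consensus element. Adjusted p ran from 1.84e-06 for GGTACATA to 0.000267 for AGTATATA. At 25 ng 12 of 12 were lower, beside 38.4% of these unequal pairs, with differences of -0.82 to -0.53 and a median of -0.68.

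Without induction limma called 0 of the 12 differences, beside 5.30% of all pairs in either direction and 1.24% of the unequal pairs. Limma's unadjusted p was under 0.05 for 0 of the 12, beside 989 of all 4845 pairs. The 12 differences ran from -0.19 to 0.10, and 1 was called without non-induced replicate 2. With ADARcdMUT 3 of the 12 elements were higher than their consensus element, beside 11.3% of all pairs in either direction, and the more mismatched element was lower in 4.04% of the unequal pairs. AGTATATA was higher by 0.39 (SE 0.11, adjusted p = 0.0301), GGTATATA by 0.28 (SE 0.08, adjusted p = 0.0261) and GGTACATA by 0.24 (SE 0.07, adjusted p = 0.0483). This count was 1 without ADARcdMUT replicate 2 and 0 in a fit of the ADARcdMUT libraries alone, which called 0.165% of all pairs. Single substitutions at positions 2, 3, 4, 6, 7 and 8 gave 1, 2, 2, 2, 3 and 2 of 12 higher with ADARcdMUT in the main fit. They were set against the same 4 consensus elements.

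The difference to the consensus element was itself compared between groups. It was more negative at 250 ng than without induction for 12 of 12 elements, beside 35.2% of the unequal pairs, by -0.86 for GGTATATA to -0.48 for AGTACATA. The call on AGTATATA was lost with the share of edited reads and without non-induced replicate 2 or 3 or any 1 of the 250 ng replicates. The call on CGTATATA was lost without non-induced replicate 2 or 250 ng replicate 1. It was more negative at 25 ng than without induction for 11 of 12, beside 28.4% of the unequal pairs. The exception was AGTATATA, with -0.43 and an adjusted p of 0.0729. Against ADARcdMUT it was more negative for 12 of 12 at 250 ng and for 12 of 12 at 25 ng, beside 35.0% and 28.3% of the unequal pairs. ADARcdMUT against no induction gave 0 calls by limma for this difference, beside 0 of all pairs. Limma's unadjusted p was under 0.05 for 3 of the 12, beside 687 of all 4845 pairs. Between 250 ng and 25 ng limma called 0 of the 12, beside 0 of all pairs, and 0 of the 12 had an unadjusted p under 0.05. Those changes ran from -0.18 to 0.07, and their 95% intervals together spanned -0.41 to 0.33.

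In percentage points, the mean of each element at 250 ng lay 5.62 to 7.68 points above its mean without induction. This was 54.7% to 63.6% of the gain of its consensus element, with a median of 58.4%. The library median gained 50.1% to 62.1% of the same consensus gains. At 25 ng the gain was 2.45 to 3.39 points, or 48.2% to 62.3% of the consensus gain, where the library median gained 44.7% to 57.9%. Counted by its level above the library median at 250 ng, AGTATATA had 24.2% ± 5.26 of the excess of TGTATATA over that median (SD, n = 3), the most of the 12. AGTACATA had 20.1% ± 1.42 and CGTATATA 15.5% ± 6.53, while CGTAGATA stood at -14.2% ± 3.38. The median of the 12 was 7.92% at 250 ng and 6.81% at 25 ng.

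The base put in place of T was compared among elements with the same base at position 5, in 12 pairs. At 250 ng the median percent edited was 8.82% ± 0.121 with A at position 1, 8.18% ± 0.142 with C and 8.13% ± 0.243 with G (SD over libraries, n = 3 each). A was higher than C in 4 of 4 pairs, by 0.09 to 0.14 in log2 odds, and A minus G ran from 0.01 to 0.16. By limma 0 of the 12 pairs passed, 1 had an unadjusted p under 0.05, and the lowest adjusted p was 0.0722, for AGTACATA minus GGTACATA with 0.16. Of all 4845 pairs, 21.4% passed in either direction, and 1325 had an unadjusted limma p under 0.05. The 95% intervals of the 12 pairs together spanned -0.20 to 0.35, so differences between new bases as large as these bounds were not excluded for some pairs. A fit of the 250 ng libraries alone called 9 of the 12 pairs, beside 53.9% of all pairs, and the arcsine square root scale called 4, beside 37.5%. At 25 ng limma called 0 of the 12, beside 18.4% of all pairs. Limma's unadjusted p was under 0.05 for 1 of the 12, beside 1350 of all 4845 pairs. Between 250 ng and no induction, 1 of 12 pairs changed, AGTACATA minus GGTACATA by 0.27 (adjusted p = 0.0425), beside 17.1% of all pairs. The count was 0 without non-induced replicate 1 or 3, 25 ng replicate 1 or 3, or any 1 of the 250 ng replicates, and 2 without ADARcdMUT replicate 1 or 3.

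The base at position 5, which the consensus leaves free, was compared among elements with the same base at position 1, in 18 pairs. At 250 ng the median percent edited was 8.87% ± 0.506 with T at position 5, 8.45% ± 0.208 with C, 8.16% ± 0.200 with A and 7.69% ± 0.0703 with G (SD over libraries, n = 3 each). Of these pairs 4 passed, beside 10.0% of all position-5 pairs. AGTACATA exceeded AGTAGATA by 0.23 (adjusted p = 0.00900), and CGTACATA exceeded CGTAGATA by 0.22 (adjusted p = 0.0171). AGTAGATA minus AGTATATA was -0.28 (adjusted p = 0.0343), and CGTAGATA minus CGTATATA was -0.28 (adjusted p = 0.00682). None of the 4 had G at position 1. The count was 2, 1 and 0 without 250 ng replicates 1, 2 and 3, 10 on the arcsine scale, 1 with the share of edited reads, and 15 in a fit of the 250 ng libraries alone. These 3 settings called 26.0%, 5.41% and 44.6% of all position-5 pairs, in that order.

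Of these differences between bases at position 5, 3 of 18 changed between 250 ng and no induction, beside 7.18% of position-5 pairs. AGTACATA minus AGTAGATA changed by 0.32 (adjusted p = 0.0129), AGTAGATA minus AGTATATA by -0.40 (adjusted p = 0.0435) and CGTAGATA minus CGTATATA by -0.34 (adjusted p = 0.0274). The count was 1 without non-induced replicate 1 or 250 ng replicate 1, and 0 without 250 ng replicate 2 or 3. At 25 ng limma called 0 of the 18 pairs, with 3 at an unadjusted p under 0.05, beside 9.19% of position-5 pairs. Without induction limma called 0 of the 18, beside 4.79% of position-5 pairs, and 0 of the 12 new-base pairs, with 2 of each at an unadjusted p under 0.05. Over all 4845 pairs the unadjusted limma p was under 0.05 for 1350 at 25 ng and 989 without induction. The order of bases at position 5 was also read in other elements at 250 ng. G minus T had a median of -0.28 in log2 odds among the 12 elements, -0.31 between the consensus elements, -0.26 over 18 pairs with a single change elsewhere and -0.09 over 194 pairs with more changes. C minus G had a median of 0.22 among the 12 elements, 0.26 between the consensus elements, 0.20 over 18 pairs with a single change elsewhere and 0.03 over 193 pairs with more changes.

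The place of position 1 among the fixed positions was read from the other single substitutions, with 12 elements a position. At 250 ng the median difference to the consensus was -0.73 at position 1, against -0.66 at position 2, -0.80 at position 3, -0.53 at position 4, -0.53 at position 6, -0.45 at position 7 and -0.42 at position 8. All 12 differences passed at positions 1 to 4, 6 and 7, and 11 of 12 at position 8. The ranges at positions 1 to 3 overlapped, -0.83 to -0.62 at position 1 against -0.82 to -0.46 at position 2 and -0.87 to -0.55 at position 3. Position 1 also overlapped position 4 (-0.66 to -0.47), position 6 (-0.65 to -0.34) and position 7 (-0.79 to -0.28). It did not overlap position 8 (-0.58 to -0.25). Differences between the positions were not tested. At position 1 the medians were -0.65 with A, -0.74 with C and -0.79 with G.

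The median effect of the change at position 1 was smaller in elements that already had another change. At 250 ng the median difference between an element with the change at position 1 and the same element with T there was -0.45 where position 8 was also changed, -0.32 with position 7, -0.31 with position 6, -0.31 with position 4, -0.08 with position 2 and -0.05 with position 3. Limma called 34, 29, 25, 25, 7 and 1 of 36 such pairs lower in that order. It called 12 of 12 on the consensus, and 45.4% of all unequal pairs. At 25 ng the medians were -0.37, -0.29, -0.29, -0.24, -0.10 and -0.06 in the same order, against -0.68 on the consensus. The elements with T at position 1 started from different levels. At 250 ng those with the other change alone had medians of 10.3%, 9.14%, 9.55%, 9.37%, 8.66% and 8.14% in that order. The consensus elements had 13.3% and the library median was 7.87%, so some had little room above that median. The differences between these contexts, and the part of the starting level in them, were not tested.

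The other readouts of editing moved with the percent edited. The median share of reads with at least 1 edit over the 12 elements was 6.71% ± 0.0894 without induction, 14.0% ± 0.216 at 25 ng, 22.6% ± 0.700 at 250 ng and 7.12% ± 0.192 with ADARcdMUT (SD over libraries, n = 3 each). For the consensus elements it was 6.74% ± 0.128, 18.02% ± 0.646, 29.2% ± 0.287 and 6.67% ± 0.0338. An edited read of the 12 elements carried a median of 1.82 ± 0.0738, 2.26 ± 0.131, 2.57 ± 0.00688 and 1.89 ± 0.0333 edits in the same groups, against 1.87 ± 0.0460, 2.80 ± 0.130, 3.20 ± 0.0383 and 1.90 ± 0.0827 for the consensus elements. At 25 and 250 ng the 12 elements thus had both a lower median share of edited reads and a lower median number of edits on an edited read than the consensus elements.

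The number of reads of each element was compared as well, since it follows the amount of reporter RNA in the pool of cells. Reads cannot tell fewer cells with an element from less of its RNA per cell. At 250 ng against no induction edgeR called 0 of the 12 elements and 0 of the 1006, while 8 of the 12 and 42.7% of all elements had an unadjusted p under 0.05. DESeq2 called 6 of the 12 and 30.9% of all elements. The edgeR count was 4 without 25 ng replicate 1, beside 21.3% of all elements, and 9 without 25 ng replicate 2, beside 43.3%. The log2 differences ran from -0.28 for GGTAGATA to 0.44 for CGTATATA. At 250 ng against ADARcdMUT 8 elements had more reads and GGTAGATA fewer (-0.33, edgeR's adjusted p = 0.0111), beside 31.7% of all elements higher and 34.8% lower. Across the 1005 elements of 8 bases, the number of A and T in the element and the log2 read difference correlated with Pearson r = 0.545 at 250 ng against ADARcdMUT, with r = 0.324 at 250 ng against no induction, with r = -0.175 at 25 ng against no induction and with r = -0.729 for ADARcdMUT against no induction. These elements share 1 set of libraries, and the part of base composition in the read differences was not tested.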

How the data were processed

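Per the labels, the 12 libraries are amplicons made by PCR from the recorder's 3′ UTR, with the element and the edited hairpin in 1 amplicon. The labels' extraction text names embryos of another organism, while the cell line and the series design give HEK293T. Read alignment, read filtering and edit calling are steps not given in the sources used here. No molecular identifiers are mentioned. For each element the authors deposited counts of reads, edited reads and edits, and of all reads in the library. The deposited tables also hold an efficiency score, the percent edited, and each element's percent of the library. The percent edited was recomputed from the counts as edits over 7 times the reads.

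Groups and replicate numbers came from the titles. The 1006 elements listed in all 12 libraries were used, of 1022 in any, and the lowest listed count was 1015 reads. The value tested was log2((edits + 0.5)/(7 × reads − edits + 0.5)), as such and centred on each library's median, with limma 3.58.1 in R 4.3.3 (lmFit, eBayes with trend). All 12 libraries entered 1 fit, with Benjamini-Hochberg adjustment over 1006 elements. Differences within a library between elements that differ at 1 position were fitted the same way without trend and adjusted over all 4845 pairs. Reads were tested with edgeR 4.0.16 (quasi-likelihood), with DESeq2 1.42.0 as an alternative. Each fit was tested on simulated data. The p-values rest on the spread between replicates within groups, pooled over all 4 groups and moderated over all elements or pairs. They do not measure the spread of the compared groups alone. Elements named are the 12 substitutions, their consensus elements and EMPTY, and pairs named are those past the threshold or at the ends of a range. The rule for the 12 elements uses sequence only, but the rule and the lists were chosen with earlier results of these data known.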

Additional observations from a re-analysis of the deposited data

Results flagged for a closer look

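The difference between GGTATATA and its consensus element TGTATATA ran opposite ways with the induced fusion and with ADARcdMUT, in every library of the 25 ng, 250 ng and ADARcdMUT groups. In log2 odds it was -0.80 ± 0.09 at 250 ng and 0.28 ± 0.10 with ADARcdMUT (SD, n = 3 each), a change of -1.08 (SE 0.108, limma's adjusted p = 1.29e-05). At 25 ng it was -0.62 ± 0.11, a change of -0.90 against ADARcdMUT (SE 0.108, limma's adjusted p = 6.07e-05). Both changes use the same ADARcdMUT libraries. The pair was flagged because its sign was opposite in all these libraries and limma's adjusted p for the change was under 0.05. Those signs and p-values are thus part of the choice, not further evidence. The change was called in this direction for 12 of 12 elements at each amount. With ADARcdMUT the mean was 1.94% for GGTATATA and 1.60% for TGTATATA, beside a library median of 1.95%. The cause of the difference with ADARcdMUT was not tested.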

How the results depend on the processing

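The difference to the consensus element kept its sign and its call at 25 ng and at 250 ng for all 12 elements, in every alternative setting that included them. This was 201 of 201 values at each amount, with 1 value per element and setting. The settings share most of their libraries. Counts of called elements relative to the median depended more on the setting. On the arcsine square root scale they were 5 at 250 ng against no induction and 1 at 25 ng against ADARcdMUT, with 1 new-base and 3 position-5 pairs at 25 ng, 4 and 10 at 250 ng, 1 pair with ADARcdMUT, 3 new-base and 5 position-5 changes, and 4 changes of the consensus difference between 250 and 25 ng. With the share of edited reads they were 2 at 250 ng and 1 at 25 ng against ADARcdMUT, with 1 position-5 pair at 250 ng. Without the trend the count at 25 ng against no induction was 1. With at least 5000 reads, which removes TGTATATA and leaves 9 of the 12 consensus pairs, there was 1 call at 25 ng against ADARcdMUT, 1 position-5 pair at 25 ng and 1 consensus pair with ADARcdMUT. Fits of the 2 groups alone gave 6 elements and 2 new-base changes at 250 ng against no induction, and 1 element against ADARcdMUT. Fits of 1 group alone gave 1 new-base and 3 position-5 pairs at 25 ng, 9 and 15 at 250 ng, and 0 consensus pairs with ADARcdMUT. DESeq2 called 6 read-count differences at 250 ng against no induction. Same-numbered libraries of different groups did not deviate together (median r -0.0195, -0.0946 to 0.0737), so the numbers were not taken as pairs. With the replicate block, 1 element was called at 25 ng against no induction, 0 new-base changes and 8 read-count differences at 250 ng against no induction (26.6% of all elements). Leaving out 1 library at a time gave, relative to the median, 2 to 5 calls at 250 ng and 1 to 2 at 25 ng against no induction (5 without ADARcdMUT replicate 1), 0 to 4 and 0 to 2 against ADARcdMUT (2 without ADARcdMUT replicate 1), and 0 to 1 for ADARcdMUT against no induction (0 to 2 uncentred, 2 without ADARcdMUT replicate 3). It gave 1 to 3 consensus pairs with ADARcdMUT, 0 to 1 without induction, 0 to 1 changes of that difference between them, 0 to 1 new-base pairs at each amount, 0 to 5 and 0 to 2 position-5 pairs at 250 and 25 ng, 0 to 2 new-base and 0 to 3 position-5 changes, and 0 to 9 read-count calls. AGTAGATA, 0.01 relative to the median at 250 ng against no induction, turned to -0.000456 on the arcsine scale, -0.00956 with edited reads, -0.0719 without non-induced replicate 3 and -0.0100 without 250 ng replicate 1 (-0.0719 to 0.0982 over the libraries left out). CGTAGATA, at -0.04, turned to 0.0177 without non-induced replicate 1 (-0.0652 to 0.0177). The alternatives on pair changes were added after the data were seen. The cause of these shifts was not tested.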
